A study of Homo sapiens with 14 samples.

Results

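The genes described are 10 protein-coding genes outside the zinc finger family that lie within 100 kb of a genomic site matched by the LTR5 sgRNA and were expressed at a lower level with that sgRNA in both endoderm and foregut: CST1, SERPINB9, RTL8C, DPP7, TMEM141, ITLN2, FAAH, PRKAB2, ASRGL1 and GSTA1. They are 10 of 17339 genes tested in both CRISPRi comparisons. Of these 17339 genes, 553 lay within 100 kb of a perfect match, and 18 of the 553 were lower in both tissues at an unadjusted p under 0.05. At any distance from a match, 43 of the 17339 genes were lower in both tissues at that limit, and the 18 are among them. Beside the 10 genes, these 18 comprised 6 zinc finger genes (ZNF611, ZNF613, ZNF69, ZNF761, ZNF813 and ZNF90) and 2 others, COL4A6 and HLA-DQB1, which met the same rule but are not in the list. The members were thus picked on their own CRISPRi values, and those values are given below as a description, without a test.

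Bulk RNA-seq was performed on H9 cells, an established human embryonic stem cell (hESC) line, in 12 libraries: 2 of undifferentiated hESC, 3 of control endoderm, 3 of endoderm with LTR5 CRISPRi, 2 of control foregut and 2 of foregut with LTR5 CRISPRi. Endoderm was obtained by 3 days of Activin A at 100 ng/ml with CHIR-99021 at 5 and then 0.5 μM, and foregut by 3 further days of differentiation. Control endoderm carried dCAS9-KRAB without an sgRNA, and CRISPRi endoderm carried dCAS9-KRAB with the sgRNA against the LTR5 consensus, a single sgRNA sequence that matches many integrants at once. Whether the undifferentiated hESC carried dCAS9-KRAB is not given in the sources used here. For the foregut libraries the titles name control and CRISPRi, while their status and medium fields repeat the entries of hESC or of cells without an sgRNA, and the groups used here follow the titles. No label says that replicates came from separate cultures, so that p-values measure only the spread between these libraries. The tests share the estimate of that spread over genes. With 2 against 2 libraries a p-value therefore does not measure the spread of that gene alone.

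LTR5 elements are the long terminal repeats (LTRs) of HERVK, an endogenous retrovirus that entered the primate lineage in several waves. An LTR holds the promoter and enhancer sequences of the provirus and often remains alone in the genome as a solo LTR, where it can act on the transcription of neighbouring genes. LTR5_Hs is the youngest subfamily, and LTR5A and LTR5B are older. dCAS9-KRAB is a catalytically dead Cas9 fused to a repressor domain that recruits the machinery for H3K9me3 at the site to which the sgRNA leads it.

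The sgRNA matched 237 sites of the GRCh37 (hg19) genome perfectly, 406 with 1 mismatch and 77 with 2. A perfect site was found in 129 of 614 LTR5_Hs integrants (21.0%), in 108 of 424 LTR5B integrants (25.5%) and in 1 of 258 LTR5A integrants (0.388%), where 3 integrants with joined names count under several subfamilies and some hold several sites. Each of the 10 genes has a perfect site within 100 kb.

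The sites lie at different places relative to the genes. Coordinates are those of hg19 with GENCODE annotation, and distances run from the start of the canonical transcript. RTL8C (chrX:134166385-134167576, plus strand) has the nearest site, 1.5 kb upstream in an LTR5_Hs. For TMEM141 (chr9:139685796-139687769, plus strand) it is 2.0 kb upstream, in the LTR5B end of a HERVK provirus, and 3 perfect sites lie within 100 kb. For DPP7 (chr9:140004994-140012761, minus strand) it is in an LTR5B, 2.0 kb upstream of the canonical start but within the annotated span of the gene. For CST1 (chr20:23728199-23731905, minus strand) it is 5.8 kb upstream in an LTR5_Hs joined to HERVK internal sequence.

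In FAAH and ITLN2 the site is intronic. FAAH (chr1:46859989-46879520, plus strand) holds it in intron 1 in an LTR5B, 2.1 kb past the start. ITLN2 (chr1:160914815-160924599, minus strand) holds it in intron 6, 5.5 kb past the start, in an LTR5_Hs that overlaps an annotated exon. A second integrant within ITLN2, an LTR5B, has a site with 1 mismatch.

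At the other 4 genes the site is farther away. ASRGL1 (chr11:62104920-62160884, plus strand) has it 10.4 kb upstream in an LTR5_Hs. Another 4 integrants lie inside the gene and are all closer to it. The first of them, an LTR5_Hs with HERVK internal sequence at chr11:62135963-62138471, was taken as the closest and has a site with 2 mismatches. SERPINB9 (chr6:2887504-2903543, minus strand) has its perfect site 22.9 kb upstream in an LTR5B. The integrant closest to it, an LTR5_Hs 5.4 kb away at chr6:2908897-2909864, has no site within 2 mismatches. For GSTA1 (chr6:52656169-52668658, minus strand) the site is 41.5 kb downstream of its start, in an LTR5_Hs located in intron 1 of the neighbouring GSTA2, 1.2 kb past the start of that gene. For PRKAB2 (chr1:146626685-146644129, minus strand) it is 65.9 kb downstream in an LTR5_Hs beyond the end of the gene.

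Levels are given below in CPM, reads of a gene scaled to the same total of gene reads in every library, after TMM scaling over the 12 libraries, and they compare libraries, not genes, since they are not divided by gene length. Gene reads per library ranged from 11583063 to 37152434, mitochondrial genes took 8.3 to 34.7% of them, and the lowest correlation of log2 levels across genes between libraries of a group was 0.886, in foregut with CRISPRi. In bulk RNA, fewer cells of a type and less RNA per cell cannot be told apart.

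**Figure D1:**
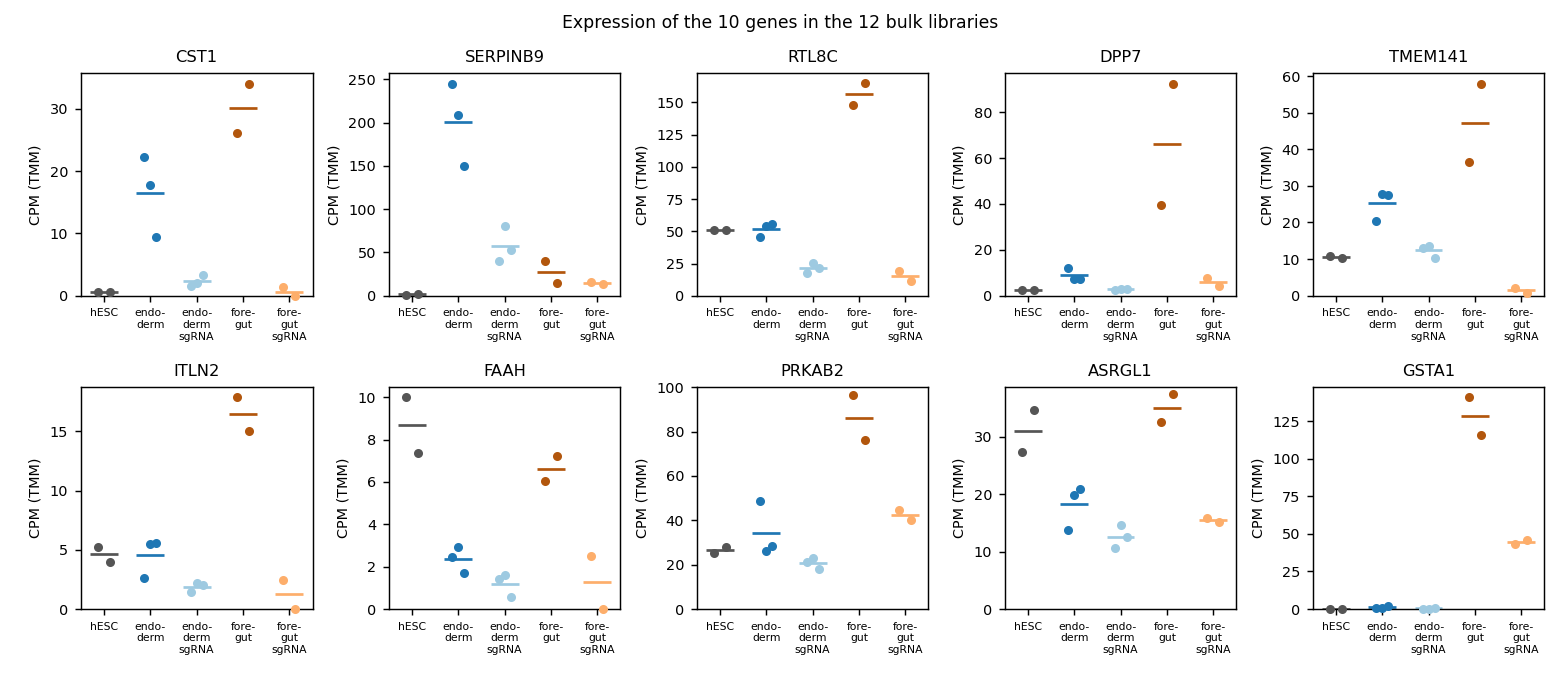
Expression of the 10 genes in each of the 12 bulk libraries, in CPM on a linear axis that starts at 0 and differs between panels. Each point is a library and each bar the mean of its group, with sgRNA standing for LTR5 CRISPRi. CST1, RTL8C, DPP7, TMEM141, ITLN2, PRKAB2 and GSTA1 are highest in control foregut with no overlap with any other group, and SERPINB9 is highest in control endoderm.

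Among the protease inhibitors and proteases, CST1 encodes cystatin SN, a secreted inhibitor of cysteine proteases. It was at 0.598 and 0.522 CPM in hESC, at 22.3, 17.8 and 9.43 in control endoderm and at 26.1 and 34.0 in control foregut. With CRISPRi it was at 1.54, 2.01 and 3.36 CPM in endoderm and at 1.35 and 0 in foregut. The CRISPRi libraries lay below every control of their tissue, and the foregut ones overlapped hESC. CST1 rose from hESC to endoderm, by 4.88 on the log2 scale (SE 0.42, n = 2 and 3, edgeR quasi-likelihood adjusted p = 2.98e-07). The further difference to foregut was 0.86 (SE 0.36, edgeR adjusted p = 0.0939) and passed the threshold only without endoderm control replicate 1 (1.19, adjusted p = 0.0475).

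SERPINB9 encodes an intracellular serpin that inhibits granzyme B, and it had the largest rise of the 10 genes from hESC to endoderm. It was at 1.15 and 1.81 CPM in hESC and at 245, 209 and 150 in control endoderm, then at 40.6 and 14.3 in control foregut. Endoderm with CRISPRi held 39.8, 80.9 and 52.6 CPM, below all endoderm controls and far above hESC. Foregut with CRISPRi held 15.8 and 13.9 CPM, which overlapped the controls. The rise in endoderm was 7.08 on the log2 scale (SE 0.33, n = 2 and 3, edgeR adjusted p = 5.07e-10), and foregut was lower than endoderm by −2.88 (SE 0.44, n = 3 and 2, edgeR adjusted p = 0.00122). The latter rests on control foregut libraries that differ from each other, and was −3.81 without replicate 1 and −2.25 without replicate 2. SERPINB9 was the only member that fell between endoderm and foregut.

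DPP7 encodes a serine dipeptidyl peptidase of intracellular vesicles. Its levels were 2.69 and 2.65 CPM in hESC, 12.1, 7.39 and 7.33 in control endoderm and 39.5 and 92.5 in control foregut, so that no 2 of these groups overlapped. With CRISPRi they were 2.61, 2.94 and 2.86 CPM in endoderm, overlapping hESC, and 7.91 and 4.3 in foregut. DPP7 rose at both steps, by 1.75 to endoderm (SE 0.31, edgeR adjusted p = 0.000368) and by 2.89 from there to foregut (SE 0.4, edgeR adjusted p = 0.000627). Without foregut control replicate 2 the second rise was 2.19.

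RTL8C belongs to a family of genes domesticated from the gag gene of an LTR retrotransposon. It was expressed at 50.8 and 51.3 CPM in hESC and at 45.7, 54.0 and 55.3 in control endoderm, and these groups overlapped. Control foregut held 148 and 165 CPM. With CRISPRi the levels were 17.8, 25.2 and 21.3 CPM in endoderm and 19.4 and 11.6 in foregut, all below undifferentiated hESC. The difference between endoderm and hESC was 0.02 (SE 0.19, edgeR adjusted p = 0.948), and foregut was higher than endoderm by 1.61 (SE 0.2, edgeR adjusted p = 0.000364).

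TMEM141 encodes a small transmembrane protein. It was at 10.9 and 10.4 CPM in hESC, at 20.4, 27.7 and 27.5 in control endoderm and at 36.4 and 57.9 in control foregut. CRISPRi endoderm was at 13.1, 13.7 and 10.3 CPM, overlapping hESC, whereas CRISPRi foregut was at 2.2 and 0.658, below every other library. The rise to endoderm was 1.24 (SE 0.23, edgeR adjusted p = 0.000472). The step to foregut was 0.91 (SE 0.27, edgeR adjusted p = 0.0305), under the fold limit of 2, which it passed without foregut control replicate 1 (1.21).

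ITLN2 encodes an intelectin, a lectin that binds glycans. It was at 5.25 and 3.98 CPM in hESC, at 2.64, 5.51 and 5.61 in control endoderm and at 17.9 and 15.0 in control foregut. The CRISPRi libraries held 1.4, 2.16 and 2.02 CPM in endoderm and 2.48 and 0 in foregut, below the controls of each tissue. hESC and endoderm did not differ detectably (−0.01, SE 0.33, edgeR adjusted p = 0.981), and foregut was higher than endoderm by 1.85 (SE 0.36, edgeR adjusted p = 0.00425). A single model over all 12 libraries gave the same fold change with an adjusted p of 0.0672, and 0.109 for foregut against hESC (1.81).

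Among the enzymes of lipid and energy metabolism, FAAH encodes the hydrolase of anandamide and other fatty acid amides, and it was the only member whose group mean was highest in hESC. It was at 10.0 and 7.35 CPM there, at 2.44, 2.94 and 1.72 in control endoderm and at 6.05 and 7.2 in control foregut. With CRISPRi it was at 1.4, 1.62 and 0.589 CPM in endoderm and at 2.52 and 0 in foregut, each group below its controls. FAAH fell by 1.86 from hESC to endoderm (SE 0.3, edgeR adjusted p = 0.000138) and rose by 1.48 from endoderm to foregut (SE 0.38, edgeR adjusted p = 0.0155). Both calls were lost in the 12-library model (adjusted p = 0.125 and 0.176), and the rise also without endoderm control replicate 3 (0.0763) and with a replicate block (0.0838).

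PRKAB2 encodes the β2 regulatory subunit of AMPK, the kinase that senses cellular energy. It was at 25.2 and 28.0 CPM in hESC and at 48.8, 26.3 and 28.3 in control endoderm, which overlapped and did not pass the test (0.37, SE 0.26, edgeR adjusted p = 0.267). Control foregut was at 96.4 and 76.2 CPM, higher than endoderm by 1.33 (SE 0.3, edgeR adjusted p = 0.00809). With CRISPRi the levels were 21.1, 23.1 and 18.2 CPM in endoderm and 44.8 and 40.0 in foregut, below the controls, and the endoderm ones also below hESC.

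ASRGL1 encodes an asparaginase that also cleaves isoaspartyl peptides. It was at 27.4 and 34.6 CPM in hESC, at 13.8, 19.9 and 20.9 in control endoderm and at 32.6 and 37.4 in control foregut. Its CRISPRi libraries held 10.6, 14.6 and 12.5 CPM in endoderm, where 1 control overlapped them, and 15.9 and 15.1 in foregut. The differences between stages passed the adjusted p but not the fold limit, with −0.77 from hESC to endoderm (SE 0.23, edgeR adjusted p = 0.0136) and 0.95 from endoderm to foregut (SE 0.26, edgeR adjusted p = 0.0205). The second sits at that limit and crossed it in 7 alternatives, to between 1.01 and 1.07.

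GSTA1 encodes a glutathione S-transferase of the alpha class, a detoxifying enzyme abundant in liver. It had 0 and 4 reads in hESC (0 and 0.161 CPM), and 0.497, 1.01 and 1.78 CPM in control endoderm. Control foregut held 141 and 116 CPM. CRISPRi endoderm was at 0.0668, 0.343 and 0.757 CPM, overlapping its controls, and CRISPRi foregut at 43.4 and 45.8, which is below its controls and above every endoderm library. GSTA1 rose by 6.91 from endoderm to foregut (SE 0.41, n = 3 and 2, edgeR adjusted p = 8.53e-06). From hESC to endoderm it rose by 3.62 (SE 0.88, edgeR adjusted p = 0.00385), a value that rests on few reads. Without hESC replicate 1 this was 2.69 (adjusted p = 0.0797), and without replicate 2 no hESC read was left to compare with.

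Taking the control libraries as a course of differentiation, 5 of the 10 genes rose and 1 fell from hESC to endoderm, beside 14.2% and 11.8% of all genes tested. Their median log2 change was 0.81, against 0.045 over all genes. From endoderm to foregut 6 rose and 1 fell, beside 14.1% and 15.0% of all genes, with a median of 1.40 against −0.091. From hESC to foregut 8 rose and 0 fell by edgeR, beside 16.0% and 16.6% (0 also fell with DESeq2, with limma-voom and with an unadjusted p), with a median of 1.97 against −0.005. The genes past the threshold in that last comparison were those other than FAAH (−0.42, edgeR adjusted p = 0.366) and ASRGL1 (0.15, edgeR adjusted p = 0.676). The same control endoderm and foregut libraries entered the choice of the members, which had to be lower with CRISPRi than in them, and the 3 comparisons share libraries, so that these counts are not independent of that choice or of each other. The foregut samples are numbered apart from the others, and their controls held more gene reads (32641546 and 37152434) than any hESC or control endoderm library. Whether they were made together with the others is not given. Stage and a possible batch therefore cannot be told apart in the comparisons with foregut.

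**Figure D2:**
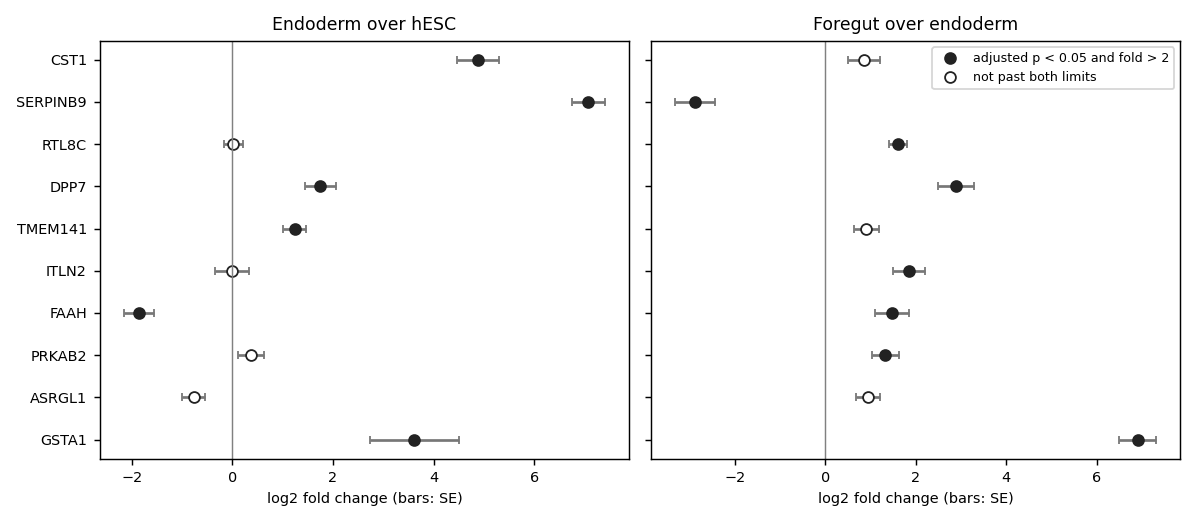
Change of the 10 genes between control stages, as log2 fold change on the horizontal axis with bars of 1 SE, for endoderm over hESC (left) and foregut over endoderm (right). Filled points passed an adjusted p of 0.05 and a fold change of 2 (6 of 10 at left, 7 of 10 at right). SERPINB9 has the largest value at left (7.08) and the only negative value at right (−2.88).

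The CRISPRi values follow from the rule and are described only. In endoderm the log2 fold changes of the members ranged from −2.85 (CST1) to −0.52 (ASRGL1), with a median of −1.27 against −0.018 over all genes. In foregut they ranged from −5.40 (CST1) to −0.87 (SERPINB9), with a median of −2.84 against −0.06. This median was −3.85 without foregut CRISPRi replicate 1 and −2.12 without replicate 2. As background, 2.52% of all genes were lower at an unadjusted p under 0.05 in endoderm and 1.98% in foregut, which is the threshold the members had to pass. Every CRISPRi library lay below every control for 8 of 10 members in endoderm and for 9 of 10 in foregut, where the shares over all genes were 5.56% and 16.3%. The exceptions were ASRGL1 and GSTA1 in endoderm and SERPINB9 in foregut.

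As a share of the control mean, CRISPRi left 13.9% of CST1 in endoderm and 2.24% in foregut, where TMEM141 kept 3.03%, ITLN2 7.54%, DPP7 9.24% and RTL8C 9.89%. In endoderm the same 4 genes kept 49.1% (TMEM141), 40.6% (ITLN2), 31.3% (DPP7) and 41.4% (RTL8C). FAAH kept 50.9% in endoderm and 19.0% in foregut. For PRKAB2 the shares were 60.4% and 49.1%, for ASRGL1 69.0% and 44.3%, and for GSTA1 35.4% and 34.7%. SERPINB9 kept 28.7% in endoderm and 54.0% in foregut and is the only member with the larger share in foregut. The difference of the CRISPRi effect between the tissues was not tested here. By the unadjusted edgeR value that the rule used, the members just inside the limit of 0.05 were GSTA1 (0.0482 in endoderm), SERPINB9 (0.0441 in foregut) and ASRGL1 (0.0416 in endoderm). Just outside it lay SLC3A2 (log2 change −0.3 and 0.101 in endoderm), CES3 (−1.08 and 0.113) and RTL8B (−0.43 and 0.136).

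Some of these values depend on a single library. In foregut CRISPRi replicate 2, CST1, ITLN2 and FAAH had 0 reads, which allows up to 3 reads in a library, and replicate 1 held 38, 70 and 71. Without replicate 2 the foregut log2 changes were −4.45 for CST1, −4.4 for TMEM141, −2.7 for ITLN2 and −1.37 for FAAH. Without replicate 1 TMEM141 was at −6.16, and for the 3 genes at 0 no fold is given. For DPP7 the foregut change was −2.66 without control replicate 2. For SERPINB9 it turned to 0.05 without control replicate 1, so that its lower level in foregut rests on that library. In endoderm, leaving out each library put GSTA1 between −2.27 (without CRISPRi replicate 3) and −0.99 (without control replicate 3). PRKAB2 was then between −0.88 (without control replicate 2) and −0.36 (without control replicate 1). FAAH was between −1.19 (without CRISPRi replicate 2) and −0.64 (without CRISPRi replicate 3).

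When the members are ordered by the distance of the site from the gene start, the foregut values form separate ranges. The 6 genes with a site 1.53 to 5.84 kb from the start (RTL8C, TMEM141, DPP7, FAAH, ITLN2 and CST1) had foregut changes of −5.4 to −2.36 with a median of −3.55, and the 4 with a site 10.4 to 65.9 kb away (ASRGL1, SERPINB9, GSTA1 and PRKAB2) had −1.52 to −0.87 with a median of −1.08. In endoderm the ranges overlapped, with −2.85 to −0.94 (median −1.27) for the former and −1.79 to −0.52 (median −1.11) for the latter. The split at 10 kb was chosen after the values were seen and no test was made of it. Without foregut CRISPRi replicate 2 the foregut ranges overlapped as well, since FAAH was then at −1.37 and GSTA1 at −1.54. For sites this near to a start or inside a gene, repression of the LTR and repression spreading over the gene's own promoter cannot be told apart.

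**Figure D3:**
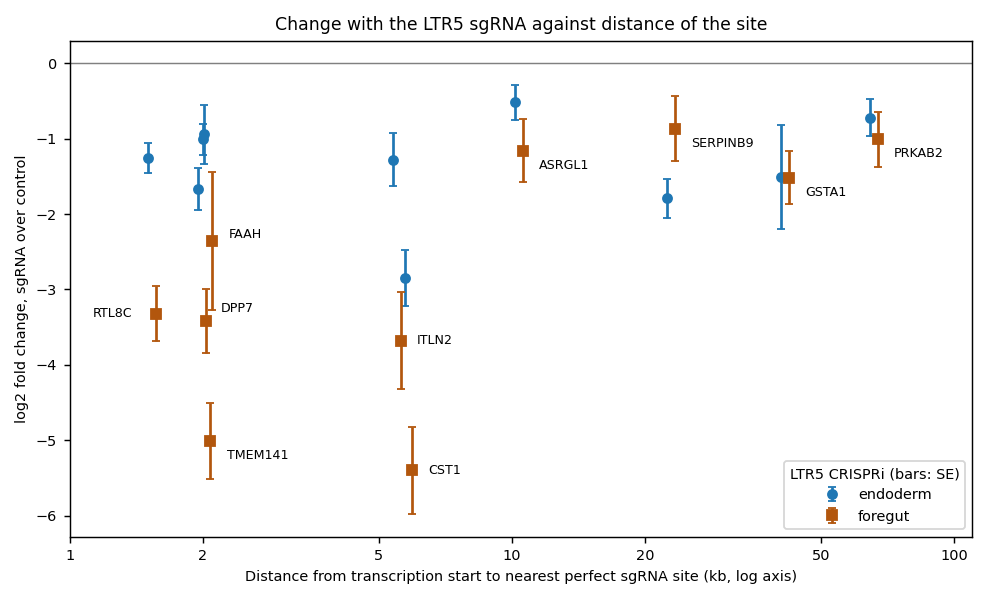
log2 fold change with LTR5 CRISPRi over control (vertical axis, bars of 1 SE) against the distance in kb from the gene start to the nearest perfect sgRNA site (log axis), for endoderm (circles) and foregut (squares), which are set slightly apart sideways to stay visible. The 6 genes with a site under 10 kb lie between −5.4 and −2.36 in foregut, below the 4 others at −1.52 to −0.87. The values chose the genes and are shown without a test.

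Other genes around the members were counted by direction. Within 100 kb of the sites nearest to the members, 35 other protein-coding genes were tested in both tissues. In endoderm 24 of them had a negative and 11 a positive log2 change with CRISPRi, of any size, and in foregut 25 and 10. Over all genes the median change was −0.018 in endoderm and −0.06 in foregut, and the share of negative changes over all genes was not taken. Neighbours of the same site are not independent of each other. By edgeR 0 of the 35 were lower in both tissues at an unadjusted p under 0.05, a count that is not independent of the rule, which took its members from these genes. DPP7 had the most neighbours (11, of which 8 were negative in endoderm and 9 in foregut) and ASRGL1 had 0.

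The close paralogs of members at the same loci were followed as well. GSTA2, which carries in its first intron the site assigned to GSTA1, was nearly silent outside foregut, at 0.128 CPM or less in hESC and in all endoderm libraries. It was at 31.3 and 19.8 CPM in control foregut and at 0.496 and 0.0438 with CRISPRi, a log2 change of −6.46 (SE 0.66, n = 2 and 2, edgeR adjusted p = 6.26e-19), against −1.52 (SE 0.35) for GSTA1. GSTA2 was below the read minimum in the endoderm CRISPRi comparison and could therefore not meet the rule, and it is singled out after its values were seen. RTL8A, a paralog of RTL8C, was at 148 and 136 CPM in control foregut and at 166 and 122 with CRISPRi (0.03, SE 0.32, edgeR adjusted p = 1.0), and RTL8B, 8267 bp from a perfect site, went from 28.6 and 32.3 to 11.3 and 5.83 (−1.81, SE 0.45, edgeR adjusted p = 0.0385). Only uniquely mapped reads were counted, and levels of paralogs as alike as GSTA1 and GSTA2 or the RTL8 genes are uncertain for that reason.

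The relatives and pathway partners of the members were examined in the control stages, over 9 lists of 53 genes in all. From hESC to endoderm 10 of the 43 tested rose and 2 fell, and from endoderm to foregut 16 of 47 rose and 6 fell, beside the shares of all genes given above. Some of the 47 reached the read minimum only through foregut and could therefore only rise. Of the cystatins, 5 of 6 tested rose from endoderm to foregut, with CST4 at 7.81 (SE 1.59, edgeR adjusted p = 0.00893), CST5 at 5.38 and CST2 at 3.63, where CST1 itself did not pass. Only 3 of these cystatins were tested from hESC to endoderm. The others reached the read minimum only through foregut, where they could only rise. The clade B serpins neighbouring SERPINB9 rose to endoderm with it, SERPINB6 by 3.18 (SE 0.22, edgeR adjusted p = 2.39e-08) and SERPINB1 by 2.32. GZMB, the granzyme that SERPINB9 inhibits, was below the read minimum. Both RTL8 paralogs rose to foregut, RTL8B by 1.99 and RTL8A by 1.92 (SE 0.2, edgeR adjusted p = 0.00015). ITLN1 was also higher in foregut (7.53, SE 1.67, edgeR adjusted p = 0.0127), but was below the read minimum in every hESC and control endoderm library. It entered the test only through foregut, so that its fold is against few or no reads.

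Of the dipeptidyl peptidases, DPP4 fell by 1.36 from hESC to endoderm and DPP8 fell by 1.56 to foregut. PRCP, a related carboxypeptidase in the same list, rose by 1.08 from hESC to endoderm. Among the genes of fatty acid amides and their receptor, NAAA, another amide hydrolase, fell by 1.39 to endoderm (SE 0.52, edgeR adjusted p = 0.0466), and CNR1, the cannabinoid receptor, rose by 4.21 to foregut (SE 0.39, edgeR adjusted p = 7.87e-05). In the AMPK list the upstream kinase CAMKK2 rose by 1.7 to endoderm and fell by 2.15 to foregut, and the catalytic subunit PRKAA2 fell by 1.26, whereas PRKAB2 rose at that step. ASNS, which synthesises asparagine, fell by 1.59 to foregut. Of 13 glutathione S-transferases tested, 5 rose to endoderm, led by MGST2 at 4.34 and GSTO1 at 2.51, and 7 rose and 2 fell to foregut, led by GSTA2 at 8.42 (SE 0.46, edgeR adjusted p = 5.94e-06), with MGST2 falling by 2.67. GSTA2 was below the read minimum in control endoderm and entered this test only through foregut.

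The gene whose pattern over the 12 libraries was most like that of each member was taken by Pearson's r of log2(CPM + 1), among the 10905 to 10906 other genes whose mean over all libraries reached 5 CPM. RTL8C and ITLN2, on different chromosomes, were the closest to each other (r = 0.960). GSTA1 was closest to FOXA1, a transcription factor of endoderm and foregut (r = 0.988), and FAAH to RIMS4 (r = 0.970). SERPINB9 was closest to SCRN1 (r = 0.962), TMEM141 to PVR (r = 0.942), PRKAB2 to F11R (r = 0.919), ASRGL1 to GRB7 (r = 0.915), DPP7 to RTL8B (r = 0.899) and CST1 to RHOU (r = 0.827). The 12 points fall into 5 groups that share treatment. The members were also chosen as lower with CRISPRi in these same libraries, so that likeness between members follows in part from the rule. The values are a description.

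Reads in the LTR5 integrants themselves were few. Of the 28 LTR5 integrants within 100 kb of the members, 20 had no read in any library and 3 had at least 10 over all libraries. Of the 10 integrants closest to the members, 7 had no read. Summed over these 10, reads numbered 2 in hESC, 4 in control endoderm and 1 with CRISPRi (0.0731 and 0.028 CPM in endoderm, exact permutation p = 0.4, 2-sided, smallest possible 0.1), and 0 in both foregut groups. Of the integrants inside ITLN2 this sum takes the one with the perfect site, and with the other, an LTR5B with 12 reads in all, it was 8, 6 and 3. At this depth no difference with CRISPRi was detectable in these LTRs. Over all 28, control endoderm held 55 reads and CRISPRi endoderm 21 (0.93 and 0.408 CPM, exact permutation p = 0.2, 2-sided), and control foregut 219 and CRISPRi foregut 0 (p = 0.333, exact, the smallest that 2 against 2 libraries can give).

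Nearly all of these reads came from a pair of integrants. An LTR5B at chr9:139690985-139691882, 3.2 kb downstream of TMEM141 within the annotated spans of CCDC183 and of another gene, holds a perfect site. It had 1 and 0 reads in hESC, 18, 20 and 8 in control endoderm and 0, 14 and 2 with CRISPRi, then 16 and 75 in control foregut and 0 and 0 with CRISPRi. It rose from hESC to endoderm by 4.88 (SE 1.11, n = 2 and 3, edgeR adjusted p = 6e-04 over all integrants), where 3.77% of 31441 integrants were called. It reached the read minimum of this comparison only through endoderm, so that only a rise could be called. With CRISPRi in endoderm it was lower by −1.32 (SE 0.69, edgeR adjusted p = 0.637), and the groups overlapped. In that comparison 0.0254% of integrants were called by edgeR, and near the members 0 of the 2 tested, also at an unadjusted p.

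An LTR5A at chr6:52613077-52614103, 782 bp beyond the end of GSTA2 and 42.1 kb from GSTA1, had 78 and 50 reads in control foregut and 0 in the other 10 libraries. It has no match to the sgRNA within 2 mismatches. It was higher in control foregut than in endoderm (edgeR adjusted p = 5.75e-07), where 5.18% of integrants were called. It reached the read minimum and was singled out only through its control foregut reads. This test could therefore give only a rise and adds no support. The fold has no finite value against a group without reads, and the fitted difference between foregut control and CRISPRi had an adjusted p of 0.659 by edgeR. In that comparison 0.00595% of integrants were called, and near the members 0 of 2 by edgeR, 1 of them at an unadjusted p. Reads of an integrant in or behind a gene can be part of the transcript of that gene, and this was not tested.

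**Figure D4:**
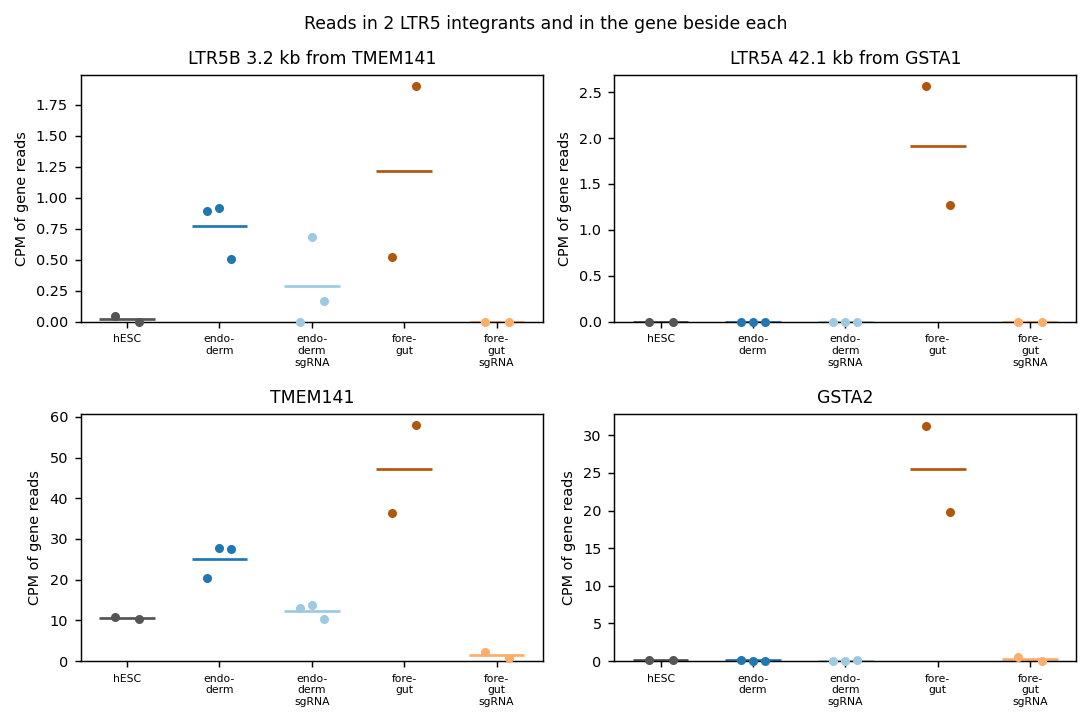
Reads in the LTR5 integrants near members that had most reads, as CPM of gene reads by library (top), beside a gene near each (bottom), on linear axes from 0. These genes are TMEM141 at left, 3.2 kb away, and GSTA2 at right, 782 bp away. The LTR5B at left lies within the annotated span of CCDC183, which is not shown. Points are libraries and bars are group means, with sgRNA standing for LTR5 CRISPRi. Both integrants are at 0 in both foregut CRISPRi libraries, and the LTR5A at right is at 0 in every library outside control foregut.

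Marker genes of the cell types were followed beside the members. Control endoderm had the 6 endoderm markers at a summed 4756 to 5329 CPM, against 18.0 to 31.1 in hESC, and 5328 to 6488 with CRISPRi. CER1 carried most of these endoderm sums (3954, 3542 and 4094 CPM in control, 5442, 4481 and 3894 with CRISPRi). With CRISPRi in endoderm 4 of the 6 had a positive and 2 a negative log2 change (median 0.09, 0 called by edgeR). In foregut the endoderm markers summed to 759 to 931 CPM in control and to 706 to 764 with CRISPRi. There CER1 was at 2.1 CPM or less, whereas FOXA2 was higher in control foregut (483 and 372 CPM) than in control endoderm (113, 138 and 139). With CRISPRi in foregut 3 of the 6 were lower and 3 higher (0 called by edgeR), and GATA4 went from 227 and 194 to 80.3 and 124 CPM. The foregut markers analysed summed to 263 to 529 CPM in control foregut and to 179 to 200 in CRISPRi foregut, where 5 of 5 tested had a negative log2 change (median −1.15) and 2 passed the edgeR threshold. PDX1, of pancreas and duodenum, was at 27.3 and 24.4 CPM against 2.73 and 7.76, and AFP at 189 and 4.76 against 0.0354 and 0. In CRISPRi endoderm the 4 pluripotency markers had negative changes (median −0.52, 793 to 1008 CPM in control and 490 to 769 with CRISPRi) and 4 of 5 mesoderm markers positive ones (median 0.72, 94.8 to 248 and 147 to 282 CPM). By edgeR 0 markers of these 2 sets passed the threshold. Mean levels in control and CRISPRi endoderm were 17.0 and 45.9 CPM for HAND1, 107 and 109 for PDGFRA, and 24.1 and 19.5 for TBXT. The part of these differences between marker levels in the CRISPRi values of the members was not tested.

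In the foregut groups the pluripotency markers summed to 158 to 206 CPM in control, where NANOG was at 0, and to 174 to 232 with CRISPRi, nearly all of it SOX2 (193 and 141 in control, 153 and 225 with CRISPRi), while POU5F1 was at 0.702 to 4.28 CPM. Of the 4 neural markers OTX2, which is also expressed in endoderm, carried nearly the whole sum (468, 537 and 490 CPM in control endoderm, 397, 412 and 535 with CRISPRi, and 20.1 to 28.4 in the foregut groups). PAX6 was at 1.51 CPM or less in every library, NEUROG2 at 0.149 or less and SOX1 at 3.7 or less, and SOX1 and NEUROG2 were at 0 in the foregut groups. The mesoderm markers summed to 38.1 to 59.3 CPM in control foregut and to 30.2 to 43.8 with CRISPRi, with TBXT and HAND1 at 0 in the latter.

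Human gastruloids, aggregates of H9 hESC that model aspects of gastrulation, were profiled at 72 h as single nuclei in 1 preparation, without sgRNA. Over its 3646 nuclei and 59934288 UMIs, RTL8C was at 44.7 CPM (exact Poisson 95% interval 43.0 to 46.4), ASRGL1 at 25.3 (24.1 to 26.7), PRKAB2 at 20.1 (19.0 to 21.3) and TMEM141 at 12.6 (11.7 to 13.5). CST1 was at 6.54 CPM (5.91 to 7.22), DPP7 at 3.99 (3.5 to 4.53), FAAH at 3.29 (2.84 to 3.78) and SERPINB9 at 1.64 (1.33 to 1.99). For ITLN2 and GSTA1 the gastruloid counts hold no entry, so that no level is given. The intervals cover counting error only, and as nuclear UMI counts differ from reads of whole cells, no comparison with the bulk libraries was made.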

How the data were processed

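For bulk RNA-seq (stranded mRNA libraries) the authors used HISAT2 on hg19, and featureCounts for reads that mapped uniquely with MAPQ over 10, on 1 annotation of genes and transposable elements (TEs), with fragments of an integrant merged. The strand setting of the counting is not given in the sources used here. The files deposited hold raw counts, 1 value per gene or per TE integrant. For gastruloids they are UMI counts per gene and nucleus made by the authors with Cell Ranger. All nuclei deposited were summed, with no filter and no doublet call, and the accessible peaks were not used.

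The members and the lists of related genes and markers were chosen with earlier results of these data known. All members are named, with at most 3 called genes per related list (by size of fold change), for each member with a mean of at least 5 CPM in a group the gene most alike it (among genes whose mean over the 12 libraries reaches 5 CPM), and neighbours as counts. Genes with at least 3 reads in 1 library were fitted with edgeR 4.0.16 (TMM, quasi-likelihood, only the groups compared) in R 4.3.3. A call needed a fold change over 2 and a p adjusted by Benjamini-Hochberg over all genes under 0.05. Integrants were fitted likewise with the library sizes and factors of the genes, leaving out those that overlap exons. Gene IDs without a place in the annotation held 0.352 to 0.526% of reads and stayed in. GRCh37 was searched on each strand for the sgRNA target next to NGG, allowing 2 mismatches. A library with 0 counts allows up to 3. The test was tried on simulated counts with known changes in genes well above 0 reads, so that this trial did not cover changes in genes with few reads. Its outcome is not reported here. Alternatives were DESeq2 1.42.0, limma 3.58.1 (voom, as used in the study), RLE size factors, other filters, a model over 12 libraries, a replicate block and leaving out each library. The labels share replicate numbers between groups, but no comparison had every same-numbered pair correlated over 0.1 (r of 0.0351, −0.0212 and 0.0279 with and without CRISPRi in endoderm, 0.118 and 0.0927 between foregut and endoderm, 0.0461 and 0.0413 between endoderm and hESC, −0.0254 between foregut and hESC and −0.116 with and without CRISPRi in foregut). The base sequences of the sites and some items are not reported here.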

Additional observations from a re-analysis of the deposited data

How the results depend on the processing

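The number of members called stayed within 1.5 times the value above in every alternative run (5 to 7 from hESC to endoderm, 5 to 9 from endoderm to foregut and 7 to 8 from hESC to foregut). The median CRISPRi change in endoderm stayed between −1.38 and −1.07. In foregut the median of −2.84 was −3.35 with limma-voom and −3.85 to −2.12 when each library was left out. With a replicate block it was −3.36 and with the crossed replicate block, chosen after seeing the data because same-numbered foregut libraries had r = −0.116, −3.37. The block changed the call of FAAH from endoderm to foregut (adjusted p = 0.0838). The block moved RTL8C from hESC to endoderm to −0.04, the 12-library model to −0.02, and leaving out libraries to between −0.04 and 0.1. ITLN2 in that comparison was 0 with a minimum of 10 reads, and −0.2 to 0.27 when each library was left out. ASRGL1 from hESC to foregut was likewise −0.02 (without hESC replicate 1) to 0.34, and SERPINB9 with CRISPRi in foregut −1.42 to 0.05 (without control replicate 1). For the reads in LTR5 integrants, taking all within 100 kb in place of the closest moved the difference in CPM from −0.0451 to −0.523 with CRISPRi in endoderm, from 0 to −3.13 in foregut, and from 0.0304 to 0.738 between endoderm and hESC, which was −0.0124 to 0.0731 when each library was left out and −0.0621 (exact permutation p = 0.7) with the other integrant inside ITLN2, an alternative chosen after seeing the data. The cause of these moves was not tested, except that the wider set of integrants holds more reads.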
